A study of Mus musculus with 6 samples.

Results

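The genes described here are 45 interferon-stimulated genes, that is, genes whose transcription rises when a cell senses type I or type II interferon. They were taken by gene name from the count table of the series, and all 45 were found among its 54532 genes and passed the filter on low counts, which left 14774 genes. The list was chosen by gene name and with the TG against NTG fold changes of these libraries known, so that comparison is given for the 45 genes as a description, from which nothing is concluded and for which no p of a single gene is given. RNA-seq was performed on poly-A selected left ventricular RNA of 6 mice, 3 TG and 3 NTG. TG mice (genotype HINT2CTG-Myh6Cre) carried a HINT2 transgene behind the CAG promoter, which tamoxifen-activated Cre, driven by the cardiomyocyte promoter Myh6, switches on. NTG mice were their non-transgenic controls (genotype C57BL/6J). Both groups were male, underwent aortic banding (AB), a surgical narrowing of the aorta that loads the left ventricle with pressure, at an age of 8 to 10 weeks, and were sampled 4 weeks later, so every heart described here was pressure loaded and the table held no sham-operated hearts. Whether NTG mice received tamoxifen or carried Cre is not given in the sources used here, so the transgene, Cre and tamoxifen cannot be told apart.

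Interferons are secreted proteins that warn tissue of infection or of misplaced nucleic acid. Type I interferons act through the receptor chains IFNAR1 and IFNAR2 and lead STAT2 and IRF9 to a DNA element called ISRE, while type II interferon (interferon gamma), made mainly by T cells and natural killer cells, acts through IFNGR1 and IFNGR2 and on an element called GAS. The induced proteins sense viral RNA, degrade or block it, modify other proteins with ISG15, or, in the case of guanylate-binding proteins (GBPs) and immunity-related GTPases (IRGs), attack the vacuoles in which microbes live, and many cell types of the heart, cardiomyocytes, endothelial cells, fibroblasts and macrophages included, can express them.

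Both elements were searched for in the DNA around the transcription start of the 45 genes, since each belongs to another route of induction. RefSeq windows of 300 bases (250 before the start and 50 after it, build GRCm38.p6) matched 29 of the 45 genes, in 34 windows. For 20 of the 34 windows, the bases just after the start were found in an annotated transcript of the same gene. The ISRE letters searched were GAAA, any 2 bases, GAAA, and the GAS letters were TTC, any 3 bases, GAA, on both strands. ISRE letters lay in the windows of 20 of these 29 genes (69%), against 3.99% of 27025 genes in the whole set of windows. GAS letters lay in those of 10 (34.5%), against 9.55%. Both were found for 7 genes and neither for 6, and 2 pairs of an ISRE and a GAS match shared bases. By role, ISRE letters were found for 4 of 4 matched GBP genes, 3 of 3 IRG genes, 2 of 2 sensors, Isg15, 9 of 15 antiviral effectors and 1 of 4 transcription factors, and GAS letters for 2 of the GBP genes, 2 of the IRG genes, 5 effectors, 1 transcription factor and none of the 2 sensors. A match is a run of letters and does not show that a factor was bound in these hearts.

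The following stretches, 5′ to 3′ along each gene's own strand with matches in capitals, show classical type I targets (Isg15, Ifit1, Ifit3, Rsad2), a transcription factor with GAS letters alone (Irf1), and genes of the GBP and IRG families (Gbp2, Gbp7, Igtp, Irgm2), whose levels are compared with those of the antiviral genes below.
Isg15: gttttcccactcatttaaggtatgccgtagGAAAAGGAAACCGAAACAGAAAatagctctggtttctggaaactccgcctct
Ifit1: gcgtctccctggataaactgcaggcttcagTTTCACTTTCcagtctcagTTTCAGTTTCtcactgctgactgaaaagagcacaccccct
Ifit3: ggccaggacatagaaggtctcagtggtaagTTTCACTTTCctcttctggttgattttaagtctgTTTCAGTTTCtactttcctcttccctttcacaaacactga
Rsad2: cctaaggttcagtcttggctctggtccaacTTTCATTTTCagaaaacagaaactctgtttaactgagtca
Irf1: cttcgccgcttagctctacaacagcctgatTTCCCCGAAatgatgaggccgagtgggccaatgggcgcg
Gbp2: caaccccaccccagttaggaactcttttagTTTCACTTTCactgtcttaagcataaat
Gbp7: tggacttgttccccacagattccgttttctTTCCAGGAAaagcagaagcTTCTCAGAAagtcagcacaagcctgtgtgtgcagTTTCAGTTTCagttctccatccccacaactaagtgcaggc
Igtp: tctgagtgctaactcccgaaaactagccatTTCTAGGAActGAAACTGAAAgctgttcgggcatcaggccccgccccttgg
Irgm2: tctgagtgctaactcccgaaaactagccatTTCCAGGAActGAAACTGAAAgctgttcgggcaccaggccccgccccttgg
The Isg15 stretch lies at chr4:156200845-156200926 on the minus strand, and its 22 capitals are 3 overlapping ISRE matches. Ifit1 (chr19:34640755-34640843, plus strand) and Ifit3 (chr19:34583343-34583446, plus strand) each hold 2 ISRE matches, and Rsad2 (chr12:26456533-26456602, minus strand) and Gbp2 (chr3:142620574-142620631, plus strand, in part inside the annotated first exon) hold 1 each. In these 4 the capitals read TTTC, 2 bases, TTTC, which is the same element on the other strand. The Irf1 stretch (chr11:53769894-53769962, plus strand) holds a single GAS match. Gbp7 (chr3:142530200-142530322, plus strand) holds 2 GAS matches followed by an ISRE match. Igtp (chr11:58199481-58199561, plus strand) and Irgm2 (chr11:58214872-58214952, plus strand, inside the annotated span of Irgm2, chr11:58199618-58222782) both hold a GAS match next to an ISRE match, and these stretches of the neighbouring paralogs differed at 2 of 81 positions.

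Libraries held 14863568 to 17581220 counts on genes, and the counts of the 45 genes together numbered 17281 to 19213 in NTG and 15463, 32923 and 56031 in TG 1, TG 2 and TG 3. Levels are given as CPM, a gene's count relative to the TMM-scaled total of its library, and fold changes, TG minus NTG on the log2 scale with their SE, are those of edgeR's fit over all 6 libraries. Values in a sentence are given in the order of the library numbers, NTG 1 to 3 and then TG 1 to 3. Hint2, the mouse gene homologous to the transgene, had 12, 545 and 559 counts in NTG and 793, 828 and 859 in TG, so the library labelled NTG 1 stood apart from the other NTG libraries in the gene that the label concerns. Over the whole profile, by the mean chi-square per gene between the counts of a pair of libraries, where a larger value is a larger difference, it was nearer to TG 2 (16.5), TG 1 (20.2) and TG 3 (25.9) than to NTG 3 (30.6) or NTG 2 (65.1). The largest differences were those between NTG 2 and TG 3 (120) and TG 1 (113), while NTG 2 and NTG 3 differed by 25.1. This measure grows with the counts of a gene, so abundant genes weigh most in it. Genes of the mitochondrial genome held 19.2, 13.4 and 14.3% of the counts in NTG and 21.5, 16 and 20.3% in TG. The study also used mice lacking Hint2, and the labels put none of these 6 libraries in such a group. Whether the label of this library is right cannot be settled from these values, and every direction between the groups given here takes the label as it stands. Ventricular markers (Myl2, Myl3, Irx4, Hey2) summed to 5509 to 8957 CPM in NTG and 9092 to 11384 CPM in TG, with the groups apart in a sum carried by Myl2 and Myl3. Irx4 overlapped between the groups (26.1 CPM in NTG 1 and 25.2 CPM in TG 3). Hey2 ran the other way, at 4.85, 5.36 and 6.31 CPM in NTG and 3.39, 4.04 and 3.52 CPM in TG. Atrial markers (Myl7, Sln, Nr2f2, Myl4) summed to 16.4 to 183 CPM, and the labelled ventricular tissue had its markers in every library. The methods give 3 mice per group, so the spread quoted is taken as that between hearts.

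TG 2 and TG 3 carried high levels of the 45 genes, and TG 1 did not. The RNA came from whole left ventricle, so more cells of a type and more RNA per cell cannot be told apart. In TG 3, all 45 genes lay above every NTG library (30.4% of the 14774 genes did so), and in TG 2 all but Oas3 and Trim30a, 43 genes, did (24.9%). In TG 1, 11 genes lay above every NTG library (31.1%) and 16 below every NTG library (33%). The median gene stood at 0.97 times its NTG mean in TG 1, 1.75 times in TG 2 and 2.66 times in TG 3, where the median of all genes tested was 0.987, 0.997 and 0.988. TG 3 was the highest of the 6 libraries for 42 genes (16.8% of all genes), and TG 2 was the highest for the other 3, Ifit3, Mx2 and Dhx58 (10.9%).

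**Figure D1:**
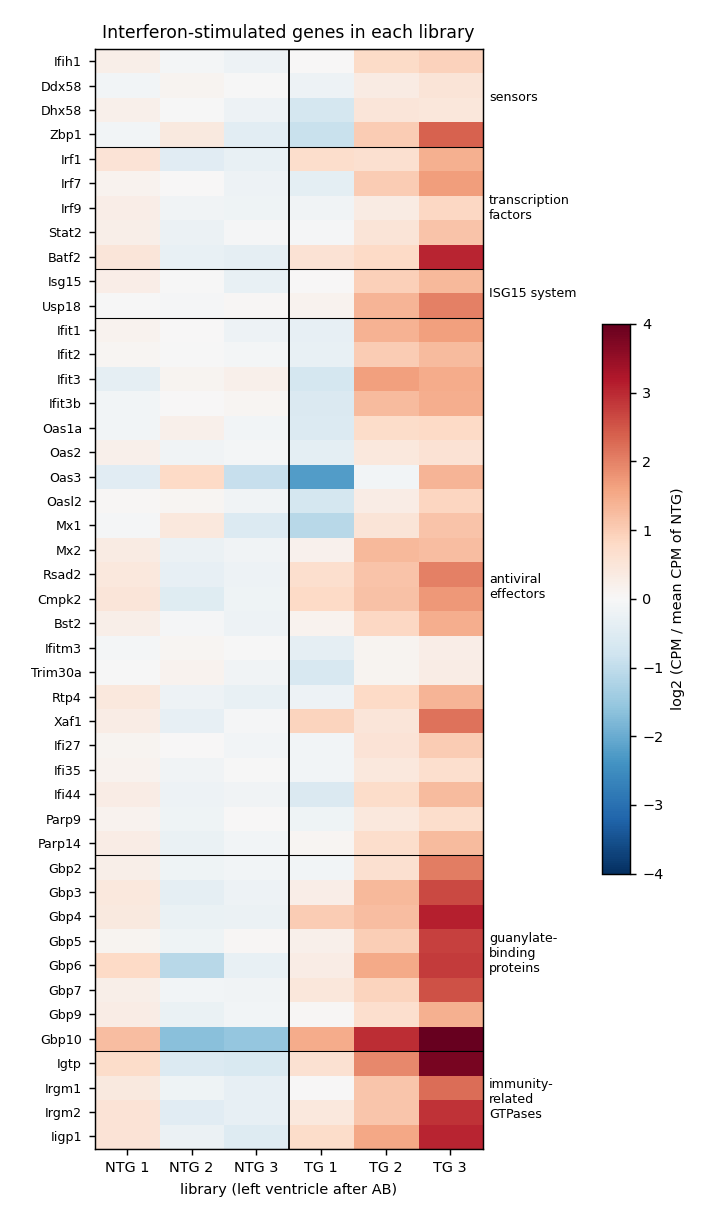
Level of each of the 45 genes in each library, as log2 of the CPM over the mean CPM of the 3 NTG libraries, with genes in rows by role and libraries in columns. Colours stop at 4 in either direction, which the value of Gbp10 in TG 3 exceeds. The TG 3 column is red throughout, the TG 2 column is red for nearly all genes, and the TG 1 column is mixed.

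Over the groups as labelled, the fitted level was higher in TG for 44 of the 45 genes, with Trim30a at -0.02 as the exception (48.7% of all genes had a higher fitted level), and the median log2 fold change was 0.97, from -0.02 to 4.12, beside -0.01 over all genes tested. With edgeR's quasi-likelihood test, where a call needs an adjusted p below 0.05 together with a fold change beyond 0.5 on the log2 scale, 0 of the 45 genes and 0% of all genes were called in either direction, and at an unadjusted p below 0.05, 23 of the 45 were higher (8.83%) and 0 lower (9.76%). DESeq2 at the same thresholds called 8 higher and 0 lower (1.54% and 2.4% of all genes). All 3 TG libraries lay above all 3 NTG libraries for 11 genes (11.2%), which were Irf1, Batf2, Usp18, Rsad2, Cmpk2, Xaf1, Gbp4, Gbp5, Gbp7, Gbp10 and Iigp1, and for the other 34 the groups overlapped. Nothing is read from these counts, since the list was chosen with the same comparison known. The spread between TG hearts was wide, with a median SD of log2 CPM of 0.84 in TG and 0.26 in NTG, beside 0.17 and 0.20 over all genes, and 43 of the 45 genes had the larger SD in TG (40.7% of all genes). The median log2 fold change was 0.50 without TG 3, 1.18 without TG 1 and 1.03 without the library labelled NTG 1, so TG 3 moved it by the most. The fold of a single gene moved by over 1.5 times for 15 of the 45 genes without TG 3, for 2 without the library labelled NTG 1, for 1 without NTG 2 and for 0 without each of the other libraries, and the genes are named with their roles.

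The sensors detect foreign RNA or unusual nucleic acid. Ddx58, which encodes RIG-I, had the highest level per length of the 4 (5.1 RPKM over all libraries) and stood at 30.7, 35.4 and 33 CPM in NTG and 28.4, 41.1 and 47.3 CPM in TG. TG 2 and TG 3 were above every NTG library and TG 1 was below them, so the groups overlapped (log2 fold change 0.24 ± 0.18, SE, as for the values in brackets that follow). Ifih1, which encodes the long double-stranded RNA sensor MDA5, was at 24.6, 19.7 and 17.9 CPM in NTG and 21.1, 35.4 and 39 CPM in TG, with TG 1 inside the NTG range (0.62 ± 0.24). Zbp1, a sensor of Z-form nucleic acid that can start necroptosis, was at 4.92, 6.96 and 3.93 CPM in NTG and 2.81, 10.7 and 27.3 CPM in TG. It spanned the widest range of the sensors, with TG 1 the lowest and TG 3 the highest of the 6 libraries (1.37 ± 0.72, and 0.37 without TG 3). Dhx58, which encodes LGP2, had the smallest log2 fold change, 0.18 ± 0.31, and its counts may include reads of the overlapping antisense gene Dhx58os. TG 1 was below every NTG library for 3 of the 4 sensors.

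Among the transcription factors, Irf7, the factor that amplifies type I interferon production, had the highest level per length (12.5 RPKM) and stood at 35, 32 and 27.5 CPM in NTG and 23.9, 63.8 and 101 CPM in TG (gene at chr7:141262706-141266481). TG 1 was the lowest library, TG 3 the highest, and the groups overlapped (1.002 ± 0.46). Batf2, a factor of activated macrophages induced by interferon gamma, was at 2.12, 1.22 and 1.16 CPM in NTG and 2.24, 2.62 and 12.4 CPM in TG. Its TG libraries all lay above NTG, though TG 1 and the library labelled NTG 1 differed by little, and TG 3 held by far the highest level (1.95 ± 0.72, and 0.71 without TG 3). Irf1, the factor most directly driven by GAS elements and shown above with a GAS match, had a log2 fold change of 0.97 ± 0.32, and all 3 TG libraries, at 42.2 to 71.5 CPM, lay above NTG, at 19.7 to 39.1 CPM. Stat2 and Irf9, whose products bind ISRE in a complex, had log2 fold changes of 0.62 ± 0.29 and 0.39 ± 0.24, and in both TG 1 lay inside the NTG range. Irf9 shares 123 exonic bases with Rnf31 on the same strand.

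Isg15 encodes a ubiquitin-like protein that is attached to other proteins, and Usp18 encodes the protease that removes it and that also blocks the type I receptor. Isg15 (chr4:156199424-156200818) was at 14.9, 12.2 and 10.1 CPM in NTG and 12.6, 23.9 and 30.4 CPM in TG. TG 1 lay among the NTG hearts, while TG 2 and TG 3 were above all of them (0.85 ± 0.32). Usp18 (chr6:121245906-121270917) was at 6.55, 6.53 and 6.94 CPM in NTG and 7.43, 17.2 and 27.3 CPM in TG. Its 3 NTG libraries were nearly alike, TG 1 lay just above them, and TG 2 and TG 3 were well above (1.38 ± 0.42).

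The 22 antiviral effectors had a median log2 fold change of 0.71, below that of every role but the sensors. Log2 fold changes in this role ran from -0.02 for Trim30a to 1.38 for Rsad2, 21 of 22 were above 0, and TG 1 was below every NTG library for 12 of the 22. Ifitm3, which blocks viral entry at endosomes, had by far the highest level per length of the 45 genes, 258 RPKM over all libraries, and was at 164, 182 and 172 CPM in NTG and 135, 187 and 209.5 CPM in TG. The groups overlapped, and the sign of the log2 fold change (0.04 ± 0.16) turned with scaling by library size alone and without TG 2 or TG 3. Rsad2, which encodes viperin, was at 36.7, 22.2 and 24 CPM in NTG and 43.8, 60.7 and 111 CPM in TG, with the groups apart (1.38 ± 0.37). Cmpk2, the mitochondrial nucleotide kinase beside Rsad2 on chromosome 12 (Rsad2 at chr12:26442746-26456452 and Cmpk2 at chr12:26469204-26479837), was at 22.1, 11.5 and 14.3 CPM in NTG and 28, 36 and 53.5 CPM in TG and its groups were also apart (1.299 ± 0.31). Xaf1, a pro-apoptotic partner of XIAP, was at 18.9, 12.4 and 15 CPM in NTG and 28.9, 21.4 and 69.7 CPM in TG. It was the sole one of these 3 genes in which TG 1 exceeded TG 2, and TG 3 held the highest level (1.38 ± 0.45, and 0.70 without TG 3).

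The IFIT genes, which encode proteins that bind viral RNA caps and ends, lie in a row on chromosome 19 from Ifit2 at 34550694 to the end of Ifit1 at 34650009. Ifit3 was at 15.2, 20.9 and 22.6 CPM in NTG and 12, 61.6 and 54.1 CPM in TG. TG 1 was the lowest library and TG 2, not TG 3, was the highest (1.12 ± 0.55). Ifit1 was at 12.9, 11.8 and 10.1 CPM in NTG and 9.16, 30.1 and 35.9 CPM in TG and Ifit3b at 6.08, 6.58 and 6.88 CPM in NTG and 4.4, 15.7 and 18 CPM in TG, again with TG 1 the lowest and TG 2 and TG 3 close to each other, and their log2 fold changes were 1.12 ± 0.46 and 0.97 ± 0.46. Ifit3 and Ifit3b are close copies, so reads may have been split between them. Ifit2 showed the same order, from 24.2 CPM in TG 1 to 71.9 CPM in TG 3.

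Mx2, whose product is a dynamin-like GTPase and which the annotation lists as a polymorphic pseudogene, was at 2.66, 1.81 and 1.91 CPM in NTG and 2.38, 5.17 and 5 CPM in TG, with TG 2 and TG 3 nearly equal (0.99 ± 0.34). Bst2, which encodes tetherin, the protein that holds budding virions at the cell surface, was at 59.4, 48.9 and 44.3 CPM in NTG and 55.8, 91.2 and 139 CPM in TG, with TG 1 inside the NTG range and TG 3 the highest (0.91 ± 0.31). The OAS genes, which encode synthases of the messenger that activates RNase L, had log2 fold changes of 0.45 ± 0.33 for Oas1a, 0.26 ± 0.24 for Oas2, 0.29 ± 0.81 for Oas3 and 0.29 ± 0.35 for Oasl2. TG 1 was the lowest library for these 4. The log2 fold change of Oas3 was -0.79 without TG 3 and 0.97 without NTG 2, so its direction rested on single libraries. The other effectors, Mx1, Rtp4, Ifi27, Ifi35, Ifi44, Parp9 and Parp14, had log2 fold changes from 0.36 (Ifi35, Parp9) to 0.79 (Rtp4). Parp9 shares 458 exonic bases with Dtx3l on the opposite strand, and Rtp4 shares 296 with Gm45338 on its own.

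GBP genes encode large GTPases that coat and break open microbial vacuoles, and they carried larger fold changes than the antiviral effectors, with a median of 1.72 and a range from 0.81 (Gbp9) to 4.12 (Gbp10). Gbp2, the member with the highest level per length (20.4 RPKM), was at 37.8, 28.3 and 29.9 CPM in NTG and 29.7, 50 and 133 CPM in TG. TG 1 lay inside the NTG range, TG 2 above it and TG 3 far above TG 2 (1.15 ± 0.52). Gbp10 had 23, 4 and 4 counts in NTG and 26, 92 and 423 in TG, or 1.57, 0.212 and 0.231 CPM in NTG and 1.88, 5.23 and 26.1 CPM in TG. Its groups did not overlap, but the library labelled NTG 1 and TG 1 were close, and with so few counts in 2 NTG libraries the fold change (4.12 ± 1.21) is the least precise of the 45. Gbp4 was at 23.2, 14.8 and 14.8 CPM in NTG and 35.2, 41 and 152 CPM in TG with the groups apart (2.12 ± 0.60). Gbp6 was at 15.6, 4.2 and 7.41 CPM in NTG and 11, 26 and 63.5 CPM in TG, with TG 1 inside the NTG range (1.91 ± 0.72). Gbp3, Gbp5 and Gbp7 had log2 fold changes of 1.73 ± 0.59, 1.72 ± 0.63 and 1.59 ± 0.54.

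Without TG 3 the log2 fold changes of 7 of the 8 GBP genes moved by over 1.5 times, to 0.32 for Gbp2, 0.65 for Gbp5, 0.69 for Gbp7, 0.87 for Gbp3, 1.05 for Gbp6, 1.12 for Gbp4 and 2.47 for Gbp10. Without the library labelled NTG 1 those of Gbp6 and Gbp10 were 2.54 and 5.6.

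The GBP genes sit in a pair of clusters, with Gbp5, Gbp7, Gbp3 and Gbp2 at chr3:142493978-142638008 and Gbp9, Gbp4, Gbp10 and Gbp6 at chr5:105077630-105293698. TG 3 exceeded TG 2 by 2.54 to 3.38 times in the chromosome 3 cluster and by 1.68 to 4.99 times in the chromosome 5 cluster. Gbp4 and Gbp9 share 60 exonic bases on the same strand, the genes of each cluster are close paralogs, and how reads that fit several of them were counted is not given in the sources used here, so the split between paralogs is uncertain.

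IRG genes encode smaller interferon-inducible GTPases of the same defence, and the 4 measured had the highest median fold change of the 6 roles, 1.99, from 1.40 to 2.69. Iigp1, which encodes the effector Irga6, had the highest level per length (28.5 RPKM) and was at 49.1, 28.6 and 23.6 CPM in NTG and 55.9, 97.7 and 279 CPM in TG. All 3 TG libraries were above NTG, TG 1 only just (2.10 ± 0.62). Igtp (chr11:58199556-58207591), which encodes the regulator Irgm3, was at 25.4, 10.4 and 10.1 CPM in NTG and 23.4, 58 and 212 CPM in TG. TG 1 fell between the library labelled NTG 1 and the other NTG libraries, and TG 3 was the highest (2.69 ± 0.84). Irgm2 and Irgm1, the other regulators of the family, had log2 fold changes of 1.87 ± 0.67 and 1.40 ± 0.54. Igtp and Irgm2 overlap on chromosome 11 and share 162 exonic bases on the same strand. How reads that fit both genes were counted is not given in the sources used here, so their counts may not be independent. Without TG 3 the log2 fold changes of Irgm1, Irgm2, Iigp1 and Igtp were 0.67, 0.80, 1.19 and 1.42. Without TG 3 the median log2 fold change of guanylate-binding proteins was 0.78 and the median log2 fold change of immunity-related GTPases was 0.995, and without the library labelled NTG 1 they were 1.88 and 2.36.

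**Figure D2:**
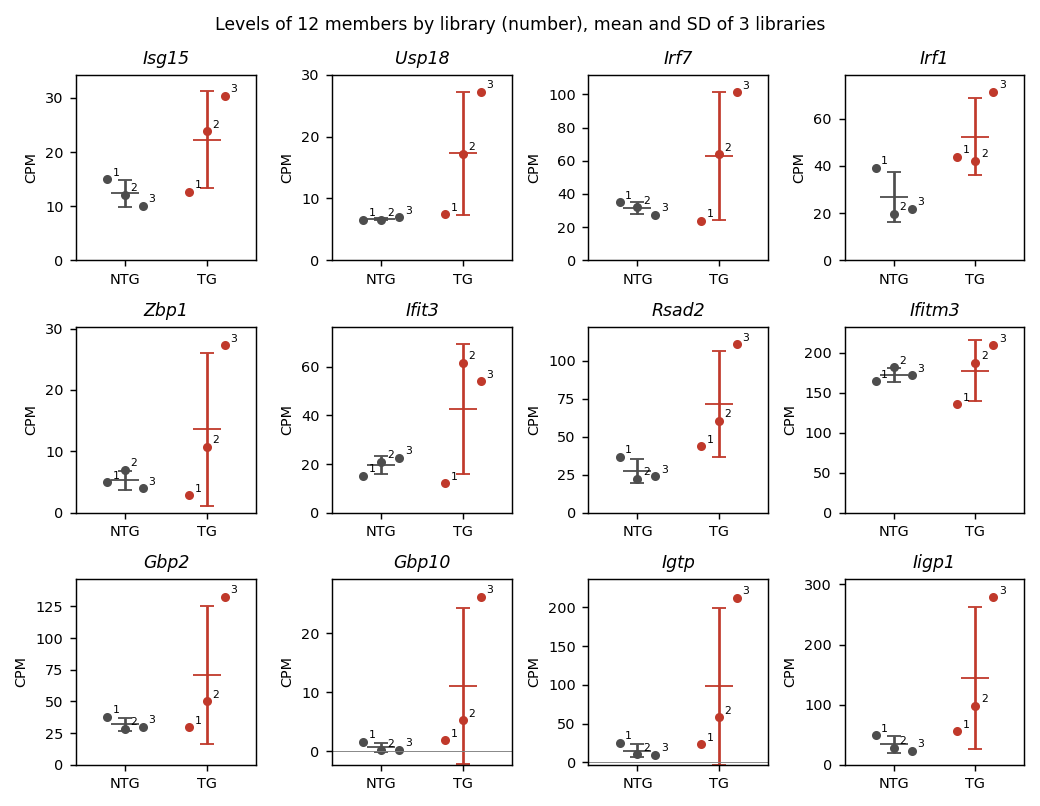
CPM of 12 of the 45 genes in each library, points numbered by library, with the mean (long bar) and SD (error bar) of 3 libraries per group and linear axes. In Usp18 and Irf7 the TG points spread over a wide range beside a tight NTG group, the groups overlap in Ifitm3, and in Gbp2, Gbp10, Igtp and Iigp1 the TG 3 point stands far above TG 2.

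The roles differed in how TG 2 and TG 3 related to each other. The median ratio of TG 3 to TG 2 was 1.13 for sensors, 1.298 for antiviral effectors, 1.43 for the ISG15 system, 1.59 for transcription factors, 2.88 for GBP genes and 3.18 for IRG genes, beside 1.002 over all genes tested. Over the NTG mean, TG 2 stood at a median of 1.65 times for effectors, 2.15 for GBP genes and 2.497 for IRG genes, while TG 3 stood at 2.40, 6.47 and 7.86 times. TG 3 was over 2 times TG 2 for 15 of the 45 genes (3.13% of all genes), namely 7 of 8 GBP genes, 4 of 4 IRG genes, Zbp1, Batf2, Oas3 and Xaf1. TG 1 stood at 0.80 times the NTG mean for effectors and at 1.20 and 1.43 times for GBP and IRG genes. Each of these ratios compares single hearts, so no replicate error can be given for them.

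**Figure D3:**
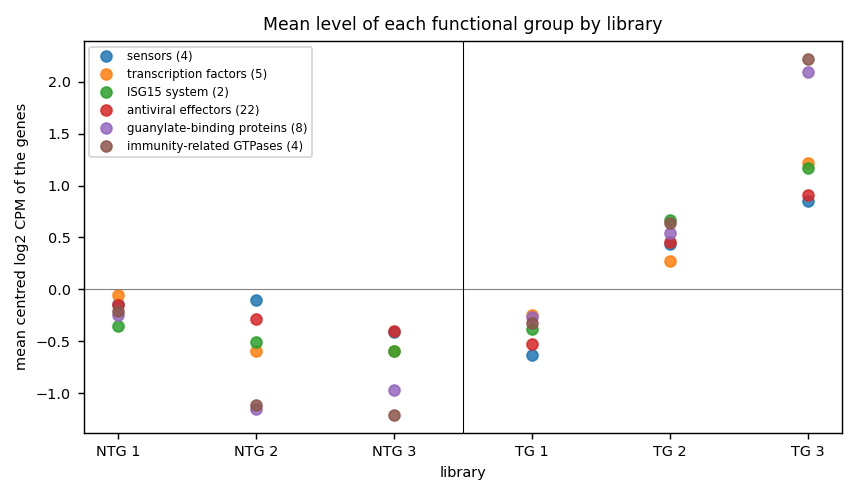
Mean centred log2 CPM of each role in each library (a gene's log2 CPM minus its mean over the 6 libraries, averaged over the genes of the role), with gene numbers in the legend. In TG 3 the GBP and IRG points (2.09 and 2.22) lie above the other roles (0.85 to 1.21), and in TG 2 all 6 roles lie between 0.27 and 0.67. In TG 1, as in every NTG library, all are below 0. Sensors and antiviral effectors are lowest in TG 1 (-0.64 and -0.53), while the TG 1 points of the other roles lie inside the NTG range (GBP -0.27 and IRG -0.33, beside -1.15 and -1.12 in NTG 2).

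Other genes of the pathway, 148 in lists by function, were read from the same fit to place these values, and 121 of them passed the filter. edgeR called 0 of the 121 (0% of all genes), with 25 higher (8.83% of all genes) and 2 lower (9.76%) at an unadjusted p under 0.05, and DESeq2 called 10 higher (1.54%) and 0 lower (2.4%). The median log2 fold change of the 121 was 0.18, 84 were higher (48.7% of all genes) and 37 lower in the fit, and all 3 TG libraries lay above all NTG libraries for 18 (11.2% of all genes). Chosen like the 45 with earlier results of these libraries known, these lists are given for their values.

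Interferon transcripts themselves were at or near the limit of the libraries. Of 21 ligand genes, 19 had 0 counts in all 6 libraries, Ifnb1 included, and a count of 0 allows up to 3 counts a library, or 0.159 to 0.216 CPM. Ifnk had 1 count, in TG 1. Ifng, the type II ligand, had 0 counts in NTG and 0, 1 and 4 counts in TG, which is too few to rank the hearts.

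None of the 5 receptor chains named here was highest in TG 3. Ifnar1, a chain of the type I receptor, was at 40.7, 52.6 and 48.9 CPM in NTG and 36, 40.9 and 44.3 CPM in TG. Its partner Ifnar2 was at 28.5, 41.6 and 34 CPM in NTG and 28.8, 27.6 and 27.8 CPM in TG. Their log2 fold changes were -0.23 ± 0.13 and -0.31 ± 0.14, with the groups overlapping and adjusted p of 0.346 and 0.287 by edgeR's quasi-likelihood test. Ifngr1, the ligand-binding chain for interferon gamma, was at 119.7, 168 and 171 CPM in NTG and 115, 125 and 122 CPM in TG (-0.34 ± 0.14, adjusted p = 0.257 by edgeR), and its partner Ifngr2 was at 169.7, 129 and 138 CPM in NTG and 169, 160.3 and 163 CPM in TG (0.18 ± 0.12, adjusted p = 0.447 by edgeR). Il10rb, a chain of the type III receptor, was at 72, 56.9 and 56.2 CPM in NTG and 84.2, 70.6 and 73 CPM in TG (0.30 ± 0.12, adjusted p = 0.254 by edgeR). Over the 6 receptor genes the median was -0.26, with 2 higher and 4 lower in the fit.

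Stat3, which carries signals of the interleukin-6 family, was at 266, 313 and 304 CPM in NTG and 223, 262 and 226 CPM in TG and lower in all 3 TG libraries (-0.31 ± 0.12, adjusted p = 0.227 by edgeR). Of the 7 signalling inhibitors tested, Trim24 had the smallest unadjusted p, at 33.7, 34.9 and 32.2 CPM in NTG and 52.5, 39.6 and 41.1 CPM in TG (0.40 ± 0.12, adjusted p = 0.204 by edgeR), and Socs3, a STAT3 target and brake on cytokine receptors, was at 49.9, 133 and 44.2 CPM in NTG and 29.7, 40.1 and 59.3 CPM in TG (-0.82 ± 0.47, and -0.13 without NTG 2). Among 14 genes of nucleic acid sensing that are not in the list of 45, 5 were higher and 9 lower, and the pair with the smallest unadjusted p were Tlr7 and Tmem173. Tlr7, the endosomal RNA receptor, was at 9.08, 22.4 and 12.4 CPM in NTG and 8.29, 6.77 and 11.1 CPM in TG (-0.75 ± 0.35), and Tmem173, which encodes STING, was at 17.1, 36.1 and 28.2 CPM in NTG and 14.4, 21.8 and 17.2 CPM in TG (-0.61 ± 0.28), with overlapping groups in both. Of the other interferon regulatory factors, Irf8, a factor of myeloid cells, was at 25.5, 26.5 and 22.8 CPM in NTG and 26.2, 35.4 and 34.3 CPM in TG (0.36 ± 0.14, adjusted p = 0.229 by edgeR), and Irf4, a lymphocyte factor, was at 0.751, 0.903 and 0.636 CPM in NTG and 1.51, 0.853 and 2.53 CPM in TG, from 11 to 41 counts a library.

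Genes further down the pathway had the largest fold changes outside the list of 45. All 12 tested genes of antigen presentation and chemokine targets had a higher fitted level in TG (48.7% of all genes), with a median log2 fold change of 1.25, and DESeq2 called 4 of them (1.54% of all genes), Nlrc5, Tap1, Psmb8 and Psmb9. The log2 fold change of Tap1, a peptide transporter for MHC class I, was 1.40 and was 0.68 without TG 3. Nlrc5, the transactivator of MHC class I genes, was at 15.8, 11.9 and 9.6 CPM in NTG and 19, 30 and 57.9 CPM in TG (1.53 ± 0.41, adjusted p = 0.196 by edgeR), and Psmb8, a catalytic subunit of the immunoproteasome, was at 15.8, 14.2 and 12.8 CPM in NTG and 20.8, 28.7 and 56.3 CPM in TG (1.31 ± 0.35, adjusted p = 0.196 by edgeR). In both, every TG library lay above every NTG library, TG 1 included. Of 71 other induced genes tested, 55 were higher and 16 lower, with a median of 0.23. Gvin1, a very large interferon-inducible GTPase, was at 8.33, 8.55 and 6.94 CPM in NTG and 13.3, 12.5 and 27.8 CPM in TG (1.17 ± 0.32, adjusted p = 0.196 by edgeR), and Parp10, a mono-ADP-ribosyltransferase, was at 23.4, 18.5 and 21.3 CPM in NTG and 24.8, 34 and 42.5 CPM in TG (0.68 ± 0.20, adjusted p = 0.196 by edgeR).

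**Figure D4:**
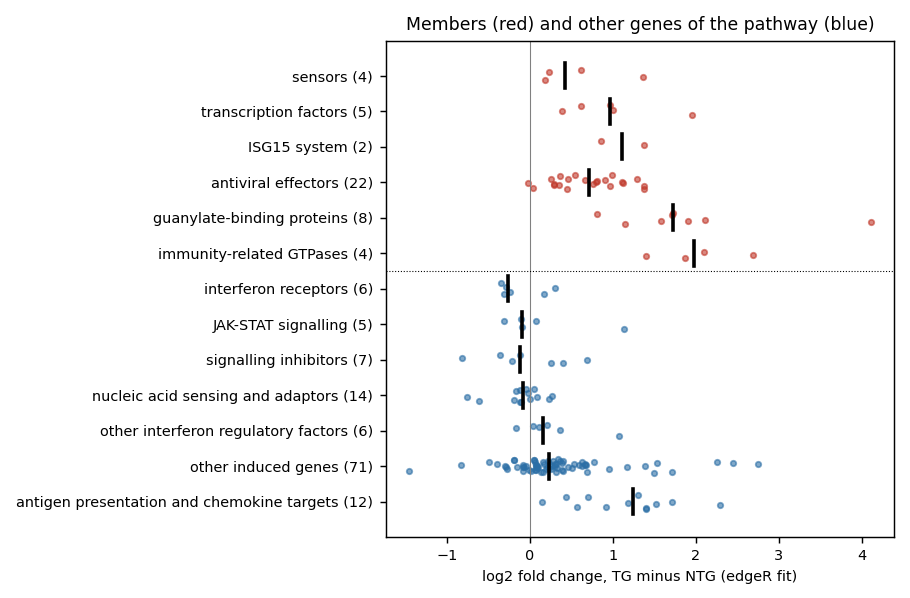
Log2 fold change, TG minus NTG, of each gene by edgeR's fit, with the 45 genes in red and other pathway genes in blue, black bars at each list's median and the number of genes tested in brackets. Medians run from 0.43 to 1.99 in the red lists, lie between -0.26 and 0.23 in the 6 blue lists from receptors to other induced genes, and reach 1.25 in antigen presentation and chemokine targets.

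Markers of the cell types that could supply these transcripts were read beside them. The T and NK cell list (8 genes, none at 0 in any library) summed to 6.76, 5.20 and 3.99 CPM in NTG and 4.04, 10.5 and 14.5 CPM in TG, so TG 2 and TG 3 had the highest sums of these markers, at a low level. Single genes did not all share that order, with Cd4 at 1.98 CPM in TG 3 and 2.25 CPM in the library labelled NTG 1. B cell markers (4 genes) summed to 4.64, 2.97 and 1.68 CPM in NTG and 3.53, 3.41 and 2.22 CPM in TG. The part of these lymphocytes in the result was not tested. Pan-leukocyte markers (Ptprc, Coro1a, Laptm5) summed to 117, 226 and 107 CPM in NTG and 79.0, 109 and 131 CPM in TG, and macrophage markers (7 genes) to 929, 1698 and 984 CPM in NTG and 684, 840 and 976 CPM in TG. Both lists were highest in NTG 2 and lowest in TG 1. Endothelial markers stayed between 1399 and 1607 CPM, and the markers of plasmacytoid dendritic cells, which are strong producers of type I interferon, summed to 0.212 to 0.864 CPM. Smooth muscle and pericyte markers (4 genes) summed to 1259, 1017 and 1334 CPM in NTG and 1395, 1306 and 1158 CPM in TG, so the groups overlapped. Of these genes, Myh11 and Acta2 were higher in every TG library than in every NTG library, while Rgs5 and Cspg4 overlapped.

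The groups were apart in the summed markers of fibroblasts and of red cells, as in the ventricular sum given above, whose order Irx4 and Hey2 did not share. Fibroblast markers (6 genes, none at 0) summed to 2223, 3289 and 2572 CPM in NTG and 1441, 2026 and 1443 CPM in TG, with every TG library below every NTG library. Dcn and Col1a1 made up most of that sum. Dcn, Col1a1 and Ddr2 shared its order, while the groups overlapped in Pdgfra, Lum and Tcf21, and the log2 fold change of Tcf21 was -0.05. edgeR called 0 of the 6 fibroblast genes, and DESeq2 called Dcn and Col1a1, which encode matrix proteins, lower (0% and 2.4% of all genes were called lower by edgeR and DESeq2). Erythroid markers (5 genes, none at 0) summed to 1310, 2245 and 1851 CPM in NTG and 908, 762 and 862 CPM in TG, again with the groups apart, and DESeq2 called 4 of the 5 lower and edgeR 0. Cardiomyocyte markers (6 genes, none at 0) summed to 26849, 15637 and 21623 CPM in NTG and 31346, 25409 and 30186 CPM in TG, with TG 2 below the library labelled NTG 1. In these 3 lists TG 1 lay on the same side of NTG 2 and NTG 3 as TG 2 and TG 3 did. The part of these cell types in the values of the 45 genes was not tested.

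Atrial markers varied more than any of these lists except the neutrophil list. They summed to 78.2, 16.4 and 20.0 CPM in NTG and 20.8, 41.0 and 183 CPM in TG, and Myl7, the atrial myosin light chain, was at 19.5, 0.159 and 0 CPM in NTG and 1.59, 7.67 and 64.4 CPM in TG. Sln and Myl4 shared the order of Myl7 in that TG 3 was the highest library and the library labelled NTG 1 was second, while Nr2f2, a transcription factor, was lowest in the library labelled NTG 1 at 10.7 CPM and highest in NTG 3 at 17.8 CPM, with TG 3 at 16.4 CPM. TG 3 thus had the highest sum of atrial markers as of the 45 genes. The library labelled NTG 1 had the second highest sum of atrial markers, and it was the highest NTG library for 34 of the 45 genes (36.8% of all genes), with summed CPM of the 45 genes of 1268 against 1020 and 1000 in NTG 2 and NTG 3. The part of atrial tissue in these values was not tested. Neutrophil markers, 207 CPM in NTG 2 and 3.70 to 26.3 CPM elsewhere, did not share the order of the 45 genes.

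**Figure D5:**
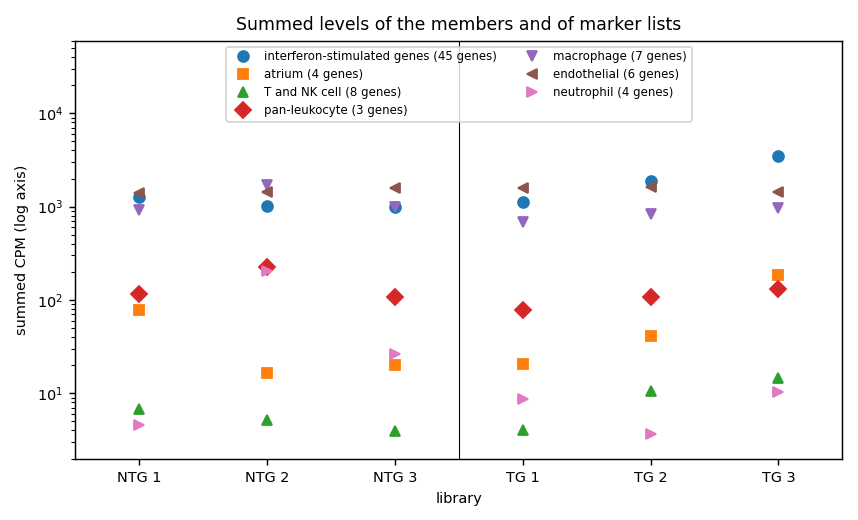
Summed CPM of the 45 genes and of 6 marker lists in each library, on a log axis, with gene numbers in the legend. The sum of the 45 genes (blue circles) is 1115 CPM in TG 1 and 3459 CPM in TG 3, atrial (orange squares) and T and NK cell markers (green triangles) are also highest in TG 3, and endothelial and macrophage markers are not.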

How the data were processed

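RNA-seq libraries of 6 left ventricles, 3 TG and 3 NTG, were made with TRIzol extraction, poly-A selection and an Illumina Novaseq. The authors cleaned the reads, aligned them (HISAT2 per the submitters' processing notes), assembled new transcripts with StringTie and used featureCounts to count reads on genes, and the values they deposited are raw counts, 1 column per heart, neither normalized nor pooled. The notes name a human build, GRCh38, whereas 98.3% of 54495 genes found in GENCODE mouse release M21 (GRCm38) had identical coordinates in the table, so coordinates are given on GRCm38. Strand setting and handling of reads that fit several places are not given in the sources used here. In the table, 27 gene names turned into dates were restored from the annotation. Total counts were 14863568 to 17581220 per library, and at this depth genes of few counts carry the widest errors.

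The counts were fitted with edgeR 4.0.16 in R 4.3.3 (TMM, filterByExpr by group, robust quasi-likelihood fit and test, Benjamini-Hochberg adjustment over 14774 genes), TG against NTG without covariates. Calls needed an adjusted p below 0.05 together with a log2 change beyond 0.5, as in the authors' own DESeq2 analysis. CPM were TMM scaled, and centred log2 CPM used a prior count of 2. RPKM divide CPM by summed exon length. The scripts were tested on simulated data. The 45 genes and the pathway lists were chosen with earlier results of these data known, so counts of calls among the 45 are descriptions, and no p of a single gene and no set test is given for them. All of them are accounted for by role. Values in every library are given, within each role, for the gene with the highest RPKM and those with the largest fitted fold change (2 genes in roles of 2 to 5, 3 in the role of 8, 8 in the role of 22), and among other genes for Hint2, Ifnb1, Ifng, the 4 main receptor chains and the 2 genes of each pathway list with the smallest unadjusted p. A further gene that the rule names is not reported here. Other genes named were chosen after their values were seen. Alternatives were DESeq2 1.42.0, limma 3.58.1 (voom), other scalings and filters, a replicate block, and each library left out, the last also with DESeq2 after the values had been seen. Promoter windows were those of RefSeq on GRCm38.p6.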

Additional observations from a re-analysis of the deposited data

How the results depend on the processing

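The higher median level of the 45 genes in TG kept its direction under every alternative tried, while the number of calls did not keep its size. Against 0 of the 45 genes called higher by edgeR, DESeq2 called 8, and leaving out each library in turn, with either tool, gave 0 to 29. edgeR gave 2 without the library labelled NTG 1 (404 over all genes) and 0 without each of the other 5. DESeq2 gave 29 without TG 1 (103 over all genes), 16 without the library labelled NTG 1 (896), 6 without TG 2 (292), 1 without TG 3 (29), 1 without NTG 2 (47) and 0 without NTG 3 (40). Nothing is read from these counts either, since the list was chosen with the comparison known. Of the 45 genes, 0 were called lower throughout. Over all genes tested, edgeR's 0 higher and 0 lower became 116 and 116 without a low-count filter, 84 and 147 with a replicate block and 228 and 355 with DESeq2. With libraries left out these ran from 0 to 896 and from 0 to 877. They were 404 and 432 by edgeR without the library labelled NTG 1, and by DESeq2 they were 896 and 877 without it, 47 and 76 without NTG 2, 40 and 129 without NTG 3, 103 and 76 without TG 1, 292 and 486 without TG 2 and 29 and 67 without TG 3. Pathway genes called higher were 1 without a low-count filter and 10 with DESeq2, and leaving out libraries gave 0 to 15 (by DESeq2, 15 without TG 1, 13 without the library labelled NTG 1, 7 without TG 2 and 1 without TG 3) and 0 to 3 lower. The cause of these differences was not tested.

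The median log2 fold change of the 45 genes, 0.97, was 0.90 with scaling by library size alone, which moved the median of all genes to -0.09, 0.81 with limma-voom, and 0.50 to 1.18 with libraries left out. Without TG 3, the median of GBP genes was 0.78 by either tool and that of IRG genes 0.995 by edgeR, and the pathway median was 0.011. The log2 fold change of Ifitm3, 0.039, turned its sign with library size alone (-0.041), without TG 2 (-0.0011) and without TG 3 (-0.099 by edgeR and -0.093 by DESeq2), and it reached 0.198 without TG 1 by edgeR. Libraries of the same number in both groups deviated with correlations of 0.08, 0.17 and -0.25, so the numbers are taken as names only. With the number as a replicate block, 0 of the 45 genes were called and their median was 0.81. Depth limits the interferon ligands, at 0 to 4 counts, and Gbp10 in NTG.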

Other observations

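Outside the list of 45, DESeq2 called 10 pathway genes higher. Besides Gvin1, Parp10, Nlrc5, Tap1, Psmb8 and Psmb9 they were Tgtp1 and Tgtp2, IRG genes that are near-identical copies of each other, Gm4951, a further IRG gene, and Rnf213, a giant ubiquitin ligase, all chosen here after their values were seen. Tgtp2 was at 15.2, 6.69 and 6.94 CPM in NTG and 24.2, 25.5 and 87.3 CPM in TG, and Tgtp1 at 4.64, 1.70 and 1.68 CPM in NTG and 7.72, 8.93 and 36.2 CPM in TG. In both, all 3 TG libraries lay above NTG and TG 3 stood far above TG 2, their log2 fold changes of 2.26 and 2.75 were 1.38 and 1.66 without TG 3, that of Tgtp1 was 3.38 without the library labelled NTG 1, and reads may have been split between these copies. Rnf213 was at 131, 117 and 129 CPM in NTG and 140.1, 199 and 243 CPM in TG, with TG 2 and TG 3 closer to each other.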
